A study of Mus musculus with 14 samples.

Results

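The immunoglobulin gene segments are the pieces from which B cells build their antibodies, and 258 of the 23441 genes in the deposited count matrix belonged to them. They were taken by symbol as the variable (V), diversity (D), joining (J) and constant (C) genes of the heavy, kappa and lambda chains, without Ighmbp2 and Igll1, which carry similar names but encode no antibody segment of this kind. The heavy chain had 132 members, the kappa chain 116 and the lambda chain 10. By segment there were 230 V genes, of which 27 are annotated as pseudogenes, 3 D, 12 J and 13 C genes. The annotation holds 395 symbols that match the rule, and the rest are not analysed here. On GRCm38 the heavy members lie at chr12:113254830-116000461, the kappa members at chr6:67609713-70726966 and the lambda members at chr16:19061618-19260859.

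RNA was sequenced from marrow plugs of the distal tibia, called bone marrow adipose tissue in the labels, of male mice 24 weeks old on a mixed background (C57BL6/SJL in the labels). There were 14 libraries, each pooled from 2 mice per the methods, in 4 groups: BMAd-Pnpla2+/+ fed ad libitum (AL, n = 4), BMAd-Pnpla2+/+ under 30% caloric restriction (CR) for 6 weeks (n = 4), BMAd-Pnpla2-/- AL (n = 3) and BMAd-Pnpla2-/- CR (n = 3). The -/- mice carry floxed Pnpla2, which encodes the lipase ATGL, deleted by a Cre in Adipoq that becomes active only in cells with Osterix-driven FLPo, so the deletion is aimed at bone marrow adipocytes and not at B cells. Mice of all 4 groups carried the Osterix-FLPo and the Cre insertions, and the +/+ mice differed by having no floxed Pnpla2. The insertion in Adipoq lowers circulating adiponectin, in both genotypes, and its Cre expression is low. Pnpla2 itself was checked first. It stood at 301, 174, 199 and 190 CPM (counts per 1000000 reads, after scaling) in BMAd-Pnpla2+/+ AL and at 804, 991, 1015 and 502 CPM in BMAd-Pnpla2+/+ CR. In BMAd-Pnpla2-/- it stood at 135, 170 and 131 CPM with AL and at 177, 219 and 267 CPM with CR. Under CR every -/- library was below every +/+ library (log2 fold change -1.90, SE 0.26, edgeR adjusted p = 0.0386).

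Each library held between 18898324 and 21665553 reads assigned to genes, and 5.78% to 11.3% of its read pairs mapped to several places and were not assigned. The 3 BMAd-Pnpla2-/- CR libraries carried no strand information: 50.6% to 52.2% of their immunoglobulin reads fell on each member's first strand, against 0.321% to 0.585% in the 11 other libraries. Counts made without regard to strand were therefore used for all 14 libraries. This difference in library type covers exactly 1 group, so it and the combination of deletion and CR cannot be told apart.

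An antibody is a pair of heavy chains and a pair of light chains, kappa or lambda. In the bone marrow, pro-B and pre-B cells cut and join a V, a D and a J segment for the heavy chain and a V and a J segment for the light chain, with the enzymes encoded by Rag1 and Rag2, and the joined exon is then spliced to a constant gene. The first constant gene used is Ighm (IgM); class switching replaces it with Ighg genes (IgG), Ighe (IgE) or Igha (IgA). Plasma cells, many of which settle in the marrow, secrete antibody and hold by far the most immunoglobulin mRNA of any cell, so that reads of these genes in marrow can come from few cells. In such bulk RNA, fewer cells of a type and less RNA per cell cannot be told apart.

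The J segments are shown whole because they are among the shortest members, at 38 to 54 bases against reads of 100 bases. Capitals mark the codons for phenylalanine and the residue after it in the kappa J segments (TTCNGN) and for tryptophan and glycine in the heavy ones (TGGGGN), the start of the motif that folds the joined region. In Igkj3 the second of these codons differs from the glycine codon of the other kappa J segments. The kappa J segments lie on the plus strand of GRCm38 between chr6:70722562-70722599 (Igkj1) and chr6:70723886-70723923 (Igkj5). The heavy J segments lie on the minus strand between chr12:113428514-113428567 (Ighj4) and chr12:113429781-113429833 (Ighj1). Sequences are GENCODE M21 transcripts, 5′ to 3′.
Igkj1: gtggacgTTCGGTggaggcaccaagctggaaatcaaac
Igkj2: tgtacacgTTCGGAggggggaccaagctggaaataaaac
Igkj3: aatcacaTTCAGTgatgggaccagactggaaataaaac
Igkj4: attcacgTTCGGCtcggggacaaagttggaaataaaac
Igkj5: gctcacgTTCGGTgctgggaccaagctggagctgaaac
Ighj1: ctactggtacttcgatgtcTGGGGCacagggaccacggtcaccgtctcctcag
Ighj2: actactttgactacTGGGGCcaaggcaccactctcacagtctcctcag
Ighj3: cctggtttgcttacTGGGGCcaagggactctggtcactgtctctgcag
Ighj4: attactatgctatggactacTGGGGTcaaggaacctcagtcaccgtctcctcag

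For 5 V genes the last 120 bases of the V exon are shown: the 3 that passed the test in a diet comparison (Ighv12-3, Ighv2-4 and Igkv4-92) and the V genes with the most reads of the heavy and kappa chains (Ighv3-6 and Igkv1-110). Capitals mark the codon of the conserved cysteine near the 3′ end of the V exon, beyond which the D or J segment is joined. Ighv12-3 is at chr12:114366521-114366640, minus strand. Ighv2-4 is at chr12:113653291-113653410, minus strand. Igkv4-92 is at chr6:68755038-68755157, minus strand. Ighv3-6 is at chr12:114288152-114288271, minus strand. Igkv1-110 is at chr6:68271148-68271267, plus strand.
Ighv12-3: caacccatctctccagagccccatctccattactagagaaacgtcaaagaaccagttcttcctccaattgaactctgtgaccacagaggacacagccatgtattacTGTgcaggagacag
Ighv2-4: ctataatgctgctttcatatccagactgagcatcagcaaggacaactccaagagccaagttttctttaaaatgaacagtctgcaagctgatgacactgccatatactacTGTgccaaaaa
Igkv4-92: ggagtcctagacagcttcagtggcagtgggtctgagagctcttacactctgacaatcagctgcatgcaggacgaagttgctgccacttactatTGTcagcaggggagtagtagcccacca
Ighv3-6: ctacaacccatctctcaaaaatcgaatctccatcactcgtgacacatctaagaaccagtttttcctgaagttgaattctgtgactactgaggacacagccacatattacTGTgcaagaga
Igkv1-110: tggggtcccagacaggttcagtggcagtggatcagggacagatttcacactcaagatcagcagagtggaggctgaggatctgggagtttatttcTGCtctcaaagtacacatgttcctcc

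Members resemble each other, and a read that matches several places was not assigned. Of the 243 members with a transcript of at least 100 bases, 157 shared no 100-base stretch with any other annotated transcript and 86 shared at least 1, all of them V genes. Only 5 shared more than 50% of their stretches, led by Ighv1-71 (96.9%) and its near copy Ighv1-62-2 (90.3%), whose levels are uncertain. Ighv12-3 and Igkv4-92 shared none, Ighv2-4 shared 24.3% with Ighv2-2, and Igkv1-110 shared 16.2% with Igkv1-117. No constant gene shared such a stretch. The closest pair shown here, Iglc2 and Iglc3, differed at 9 of the first 200 bases of the constant exon (95.5% identity), and the differing bases are in capitals. Iglc2 is at chr16:19198653-19198852, minus strand, and Iglc3 is at chr16:19065482-19065681, minus strand.
Iglc2: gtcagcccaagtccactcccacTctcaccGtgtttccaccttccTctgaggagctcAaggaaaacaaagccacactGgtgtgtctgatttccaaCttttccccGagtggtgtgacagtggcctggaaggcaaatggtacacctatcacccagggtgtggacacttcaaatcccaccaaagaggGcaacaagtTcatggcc
Iglc3: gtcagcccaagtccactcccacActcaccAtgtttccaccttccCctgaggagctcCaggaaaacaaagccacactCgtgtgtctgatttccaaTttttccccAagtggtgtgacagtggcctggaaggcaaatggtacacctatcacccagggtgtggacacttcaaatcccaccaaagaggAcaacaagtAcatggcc

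Immunoglobulin reads were abundant in every group and their summed share did not separate the groups. They made up 2.89%, 1.53%, 2.95% and 2.23% of gene reads in the BMAd-Pnpla2+/+ AL libraries. In BMAd-Pnpla2+/+ CR they made up 2.12%, 3.03%, 4.36% and 1.77%. In BMAd-Pnpla2-/- the shares were 2.09%, 3.01% and 2.36% with AL and 2.25%, 2.81% and 1.80% with CR. The highest and the second lowest of the 14 values both came from BMAd-Pnpla2+/+ CR, and the ranges of all groups overlapped. The group means were 2.40% ± 0.66 (SD, n = 4) and 2.82% ± 1.16 (SD, n = 4) for +/+ AL and CR, and 2.49% ± 0.47 (SD, n = 3) and 2.29% ± 0.50 (SD, n = 3) for -/- AL and CR. Heavy chain genes took 1.02% to 2.78% of gene reads and kappa genes 0.491% to 1.56%. Lambda genes took 0.00907% to 0.0302%, and their lowest group mean was that of BMAd-Pnpla2-/- CR, at 0.0134% ± 0.0050 (SD, n = 3) against 0.0243% ± 0.0051 (SD, n = 3) with AL. These sums are a description and were not tested.

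**Figure D1:**
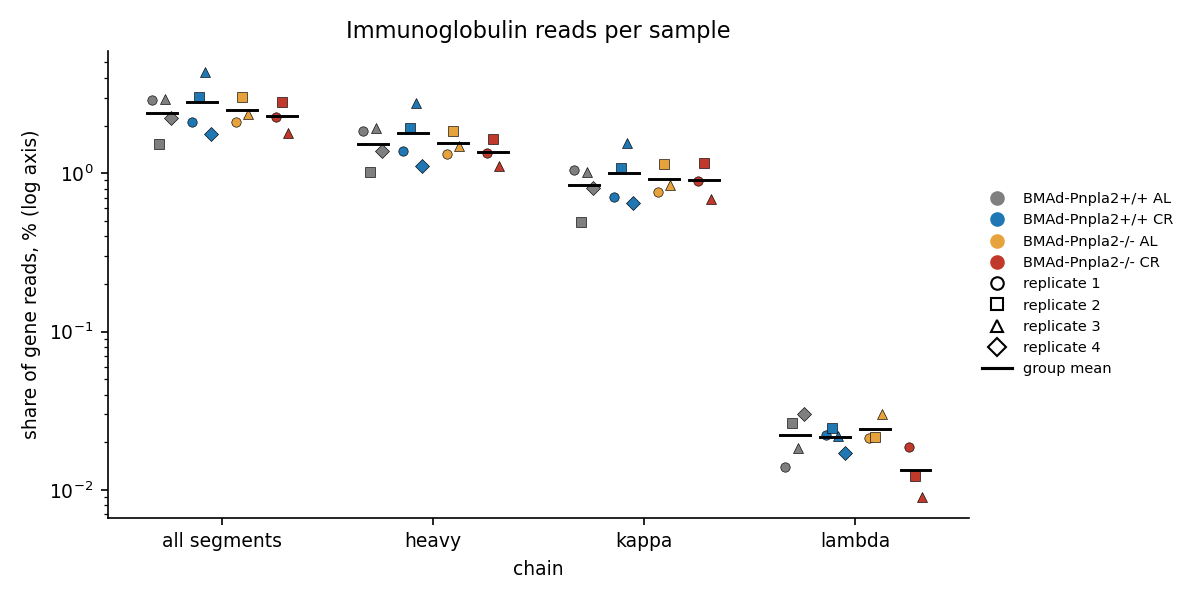
Share of gene reads (%, log axis) taken by all immunoglobulin members and by heavy, kappa and lambda genes; each point is 1 library, its shape the replicate number, and bars are group means. The 4 groups overlap for all members, between 1.53% and 4.36%, and lambda reads are the rarest in every library.

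The heavy constant genes give the isotypes, and that of IgA had the most reads of any 1 of them in every library. The IgG genes together exceeded it in +/+ AL replicate 1 (41.7% against 32.3% of heavy constant reads) and -/- CR replicate 3 (37.7% against 36.6%). Per kb of exon they also did so in +/+ CR replicate 2 and -/- AL replicates 1 and 2. Ighm exceeded Igha per kb in +/+ AL replicate 1 (27.4% against 25.5%). Igha, the constant gene of IgA, an antibody of mucosal surfaces, was read at 5333, 6247, 13320 and 6507 CPM in BMAd-Pnpla2+/+ AL and at 8632, 7821, 18222 and 6762 CPM in BMAd-Pnpla2+/+ CR. In BMAd-Pnpla2-/- it was read at 5641, 7477 and 8201 CPM with AL and at 7904, 8886 and 3266 CPM with CR. Replicate 3 of both +/+ groups stood well above its group, and the lowest library was replicate 3 of BMAd-Pnpla2-/- CR. Igha took 57.2% ± 18.9 (SD, n = 4) of heavy constant reads in +/+ AL and 66.4% ± 14.6 (SD, n = 4) in +/+ CR. The shares in -/- were 50.2% ± 8.9 (SD, n = 3) with AL and 56.7% ± 17.6 (SD, n = 3) with CR. With CR the level changed by a log2 fold change of 0.40 (SE 0.39, edgeR adjusted p = 0.460) in +/+ and -0.09 (SE 0.45, edgeR adjusted p = 0.919) in -/-. The 95% intervals of the fold ran from 0.739 to 2.35 and from 0.482 to 1.83, and both intervals hold 1, so no change was detectable with these libraries.

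Ighm, the constant gene of IgM, moved between libraries in its own way. It stood at 4042, 1146, 1358 and 2287 CPM in BMAd-Pnpla2+/+ AL and at 1215, 3091, 768 and 1303 CPM in BMAd-Pnpla2+/+ CR. The -/- libraries had 2210, 2411 and 1846 CPM with AL and 837, 926 and 2042 CPM with CR. The library with the highest Igha CPM had the lowest Ighm CPM, and there were between 1.32 (+/+ AL replicate 1) and 23.7 (+/+ CR replicate 3) Igha reads per Ighm read. Ighd, the constant gene of IgD, which naive B cells carry, ranged from 53.3 CPM (+/+ AL replicate 2) to 294 CPM (+/+ CR replicate 4). In that +/+ AL library Cd79a, which encodes a signalling chain of the B cell receptor, was also lowest of the group (69.3 CPM, against 214 to 369 in the other 3).

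The 4 Ighg genes together took 15.2% to 41.7% of heavy constant reads. Per kb of exon, Ighg2c was highest among them at a mean of 1161 CPM, followed by Ighg2b at 569, Ighg1 at 229 and Ighg3 at 16.7 CPM per kb. By reads alone Ighg2c and Ighg2b were close, at 433453 and 426123 over all libraries. Their joined exons are 1326 and 2678 bases long, so the gap between them depends on the length used. Ighg1 was read at 1706, 448, 430 and 507 CPM in +/+ AL and at 391, 884, 505 and 201 CPM in +/+ CR, and at 779, 845 and 510 CPM (AL) and 177, 419 and 500 CPM (CR) in -/-. Every -/- CR library was below every -/- AL library, the nearest pair being 500 and 510 CPM. The log2 fold change there was -0.96 (SE 0.60, edgeR adjusted p = 0.310), with a 95% interval of the fold from 0.210 to 1.25. Ighe, the gene of IgE, was the least read heavy constant gene, at 1.596 to 9.25 CPM. Exon lengths here join all annotated exons, those for the membrane forms included.

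Of the light chains, Igkc, the only kappa constant gene, had the highest level per length of all members, at a mean of 11853 CPM per kb. Its levels were 7458, 3261, 7474 and 5617 CPM in +/+ AL, 4821, 7736, 9499 and 4547 CPM in +/+ CR, 5751, 8348 and 6134 CPM in -/- AL and 5849, 7579 and 4206 CPM in -/- CR. The ranges of the groups overlapped. With CR the log2 fold change was 0.16 (SE 0.30) in +/+ and -0.20 (SE 0.35) in -/-, with edgeR adjusted p = 0.713 and 0.748. The 3 tested genes outside the group with the most similar levels over the 14 libraries were Txndc5 (Pearson r = 0.84), Tnfaip8l1 (0.83) and Slc12a9 (0.83), the highest among 17451. For Ighm these were Wnt10a (0.89, at a mean of 22.1 counts), Gga2 (0.86) and Zfp574 (0.86). Such values share each library's scaling and are given as a description.

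Lambda constant reads made up 0.933% to 4.36% of light constant reads. Iglc1 varied the most of all constant genes tested, 13.7-fold between its highest and lowest library. It stood at 19.1, 97.1, 16.1 and 61.8 CPM in +/+ AL and at 64.7, 75.4, 11.7 and 36.6 CPM in +/+ CR. In -/- it stood at 10.2, 39.8 and 90.8 CPM with AL and at 39.8, 10.99 and 7.11 CPM with CR. Libraries under 20 CPM occurred in every group, and the highest of -/- CR, at 39.8 CPM, was below the highest of each other group. Iglc2 was steadier, between 30.3 and 91.8 CPM. Iglc3 was read at 52.7, 30.3 and 17.6 CPM in -/- AL and at 18.7, 12.4 and 13.6 CPM in -/- CR (log2 fold change -1.17, SE 0.45, edgeR adjusted p = 0.107). Over the 11 libraries with strand, its count without strand was 46.6% of its count by strand, and the gene 2010309G21Rik is annotated on its other strand, so its level is a lower bound. In the deposited matrix, which counts 11 libraries by strand and the 3 of BMAd-Pnpla2-/- CR without, the same change reached -2.28 (edgeR adjusted p = 0.00377). That larger value follows from how the 2 kinds of count were combined.

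**Figure D2:**
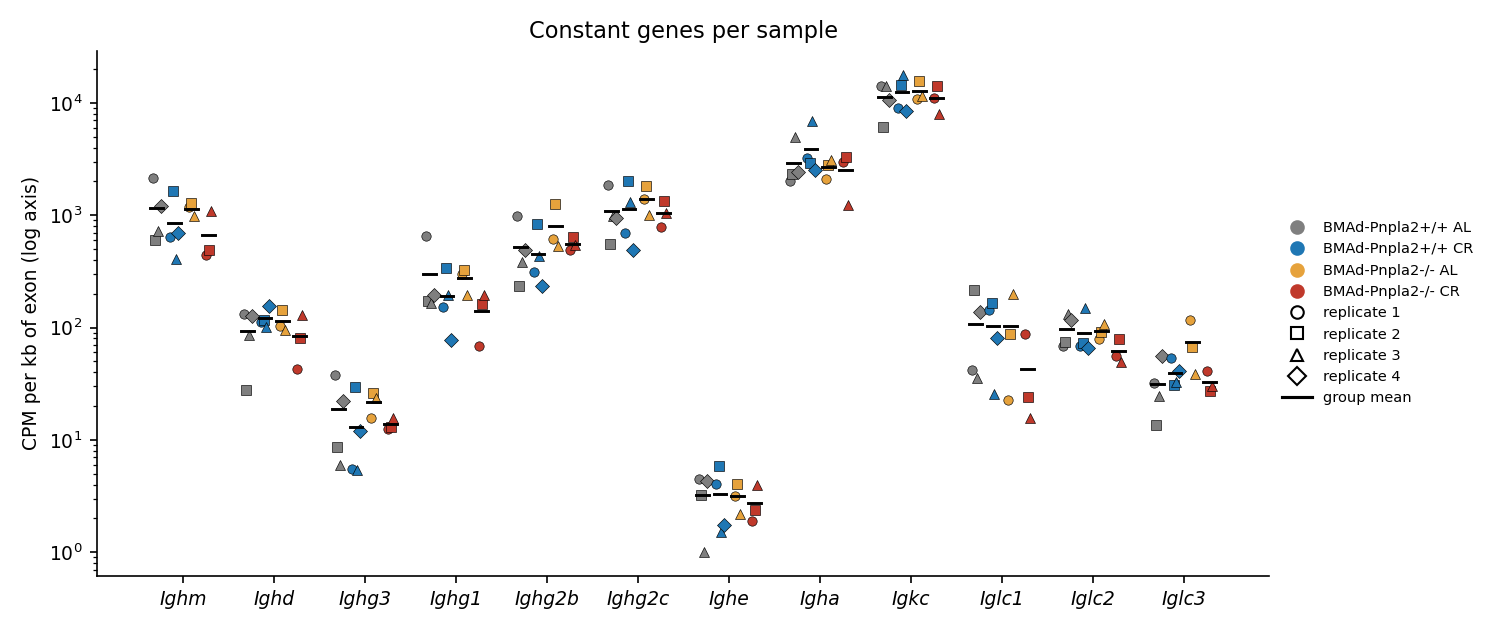
Level of the 12 constant genes tested, in CPM per kb of exon (log axis), with 1 point per library, shapes for replicate numbers and bars for group means. Igkc and Igha are highest, Ighe is lowest, and the 4 groups overlap in most genes while single libraries differ up to 13.7-fold in Iglc1.

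None of the 12 constant genes tested passed the criteria (edgeR quasi-likelihood test, adjusted p under 0.05 and a log2 fold change beyond 1 either way) in any of the 5 comparisons. At an unadjusted p under 0.05 there were 0 of 12 for CR in +/+, against 40.4% of all genes tested, and 1, Iglc3, for CR in -/-, against 29.1%. DESeq2 called Iglc3 lower with CR in -/- (adjusted p = 0.0385). In +/+, 6 of the 12 log2 fold changes with CR lay above 0 and 6 below (median -0.02, against 0.003 over all genes tested). In -/- all 12 lay below 0 (median -0.56, against 0.05 over all genes tested), and 12 of 12 did so under each of the other scalings. Without replicate 1 or replicate 3 of BMAd-Pnpla2-/- CR, 11 of 12 did. The genotype by diet term was also below 0 for all 12 (median -0.41), with 1 at an unadjusted p under 0.05, against 10.4% of all genes tested. These genes share cells, so they are not separate evidence. Most V genes went the other way with CR in -/-: of 199 tested, 116 lay above 0 and 83 below (median 0.10). Mean heavy V reads in -/- were 0.162% of gene reads with AL and 0.202% with CR. Mean heavy constant reads were 1.38% and 1.16%. Both shares overlapped between the diets and were not tested. The -/- CR libraries are those without strand information, so library type and the combination of deletion and CR cannot be told apart here. Iglc4, the 13th constant gene, had 31 reads in all and was not tested.

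The J segments were read at low counts, between 258 (Ighj1) and 1273 (Igkj4) reads over the 14 libraries for the 9 that were tested. In CPM per kb of exon Igkj4 led the kappa J segments at a mean of 119, ahead of Igkj5 at 97.5, Igkj3 at 65.2, Igkj2 at 51.8 and Igkj1 at 30.2, an order that was the same by the lengths of the sequences shown. Among the heavy J segments, Ighj4 (49.5) and Ighj3 (49.1) were close and Ighj1 (17.5) was lower. Ighj2 stood at 39.2 by the 48 bases shown above and at 18.8 by its longer annotated exon of 100 bases. Its level thus depends on the length used, and by either length it lay between Ighj3 and Ighj1. Igkj3, whose motif differs in the sequences above, was thus read at more than the level of Igkj1 and Igkj2. Reads that span a joined V and J, or a J spliced to its constant gene, may be assigned to another segment or to none, so these levels do not give the use of each J segment. None of the 9 passed the test, and their log2 fold changes with CR ran from -0.18 to 0.37 in +/+ and from -0.50 to 0.46 in -/-. The 3 D segments had 19 to 44 reads each and 3 lambda J segments 31 to 57, and none of these was tested.

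Reads of the V genes show which V segments the marrow RNA held, and these reads were spread over many genes. In every library 14 to 18 heavy V genes and 13 to 17 kappa V genes held 50% of the reads of their chain. Between 110 and 115 of the 117 heavy V genes and 103 to 108 of the 110 kappa V genes had a read. Igkv1-110 was the most read kappa V gene in all 14 libraries, with 5.87% to 10.7% of kappa V reads. Among heavy V genes, Ighv3-6 led in 7 libraries, Ighv1-26, Ighv1-81 and Ighv9-3 in 2 each and Ighv1-82 in 1. The largest share of any heavy V gene was that of Ighv1-81 in replicate 2 of +/+ CR, at 10.2%. V pseudogenes took 0.0999% to 0.325% of V reads.

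The 5 most read heavy V genes were Ighv3-6 (mean 97.4 CPM), Ighv1-81 (88.2), Ighv9-3 (84.7), Ighv1-26 (78.5) and Ighv1-53 (61.6). Ighv3-6 stood at 103, 47.9, 112 and 99.8 CPM in +/+ AL and at 93.3, 80.1, 170 and 63.7 CPM in +/+ CR. It stood at 51.6, 131 and 80.9 CPM in -/- AL and at 98.2, 134 and 98.3 CPM in -/- CR. The groups overlapped. With CR the log2 fold changes of these 5 genes ran from 0.10 to 0.64 in +/+ and from 0.05 to 0.48 in -/-, and none passed the test. The 5 most read kappa V genes were Igkv1-110 (244 CPM), Igkv1-117 (162), Igkv10-96 (153), Igkv6-15 (91.5) and Igkv6-23 (88.3). Igkv1-110 was read at 257, 189, 209 and 212 CPM in +/+ AL, 224, 308, 432 and 173 CPM in +/+ CR, 141, 322 and 147 CPM in -/- AL and 310, 304 and 195 CPM in -/- CR. Its log2 fold changes with CR were 0.39 (SE 0.30, edgeR adjusted p = 0.350) in +/+ and 0.41 (SE 0.35, edgeR adjusted p = 0.477) in -/-.

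By family, the 61 Ighv1 genes took 52.4% to 59.9% of heavy V reads, a narrow range over all 14 libraries. Ighv5 took 6.15% to 11.8%, Ighv2 4.49% to 8.69% and Ighv3 4.58% to 7.86%. The kappa reads were divided more evenly, with Igkv1 at a mean of 18.7%, Igkv4 at 16.2%, Igkv6 at 12.4%, Igkv3 at 10.3% and Igkv8 at 7.75% of kappa V reads. Igkv8 took 6.89%, 6.93%, 6.13% and 10.6% in +/+ AL and 6.36%, 4.69%, 4.99% and 6.27% in +/+ CR, and 7.72%, 8.21% and 8.76% (AL) and 9.05%, 12.3% and 9.51% (CR) in -/-. Under CR, the +/+ libraries all lay below the -/- ones in this family. By position, the kappa V genes in the 50% nearer to the J segments gave 47.7% ± 0.8 (SD, n = 4) of kappa V reads in +/+ CR. The other groups had 51.7% ± 2.0 (SD, n = 4, +/+ AL), 52.8% ± 1.4 (SD, n = 3, -/- AL) and 53.0% ± 1.3 (SD, n = 3, -/- CR). The +/+ CR libraries, at 46.6% to 48.3%, did not overlap the other 10, at 49.9% to 54.3%. For heavy V genes the corresponding group means lay between 50.8% and 55.0%. These shares are a description, picked from many after the values were seen, and were not tested.

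**Figure D3:**
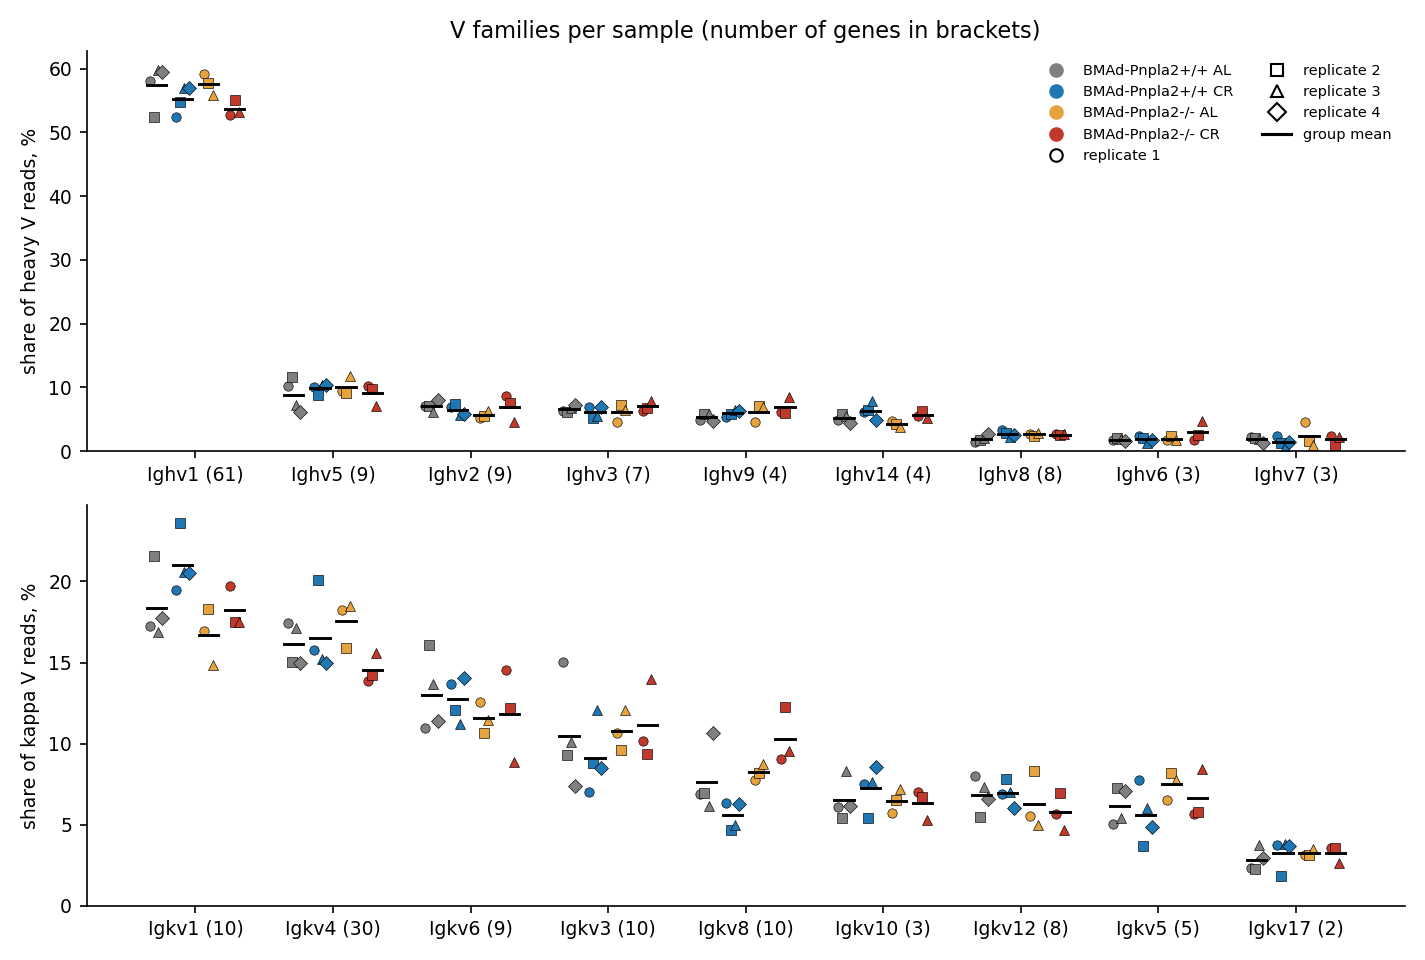
Share of heavy V reads (top) and kappa V reads (bottom) by V family, in %, for the 9 families with the most reads of each chain; points are libraries, shapes replicate numbers and bars group means. Ighv1 holds 52.4% to 59.9% of heavy V reads in every library, and no kappa family exceeds 23.6%.

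Only 3 lambda V genes exist among the members, and their balance changed from library to library. Iglv1 had most lambda V reads in 12 libraries and Iglv3 in the other 2, replicate 3 of +/+ AL (61.0%) and replicate 3 of +/+ CR (58.8%). Iglv1 stood at 47.5, 97.4, 22.1 and 77.02 CPM in +/+ AL, 67.7, 77.02, 22.95 and 50.8 CPM in +/+ CR, 85.4, 67.7 and 97.5 CPM in -/- AL and 74.5, 21.1 and 17.4 CPM in -/- CR. Iglv3 ranged from 6.54 to 52.0 CPM and Iglv2 from 7.34 to 21.8 CPM. None of the 3 passed the test in any comparison. Their log2 fold changes with CR in -/- were all below 0, from -1.15 for Iglv1 to -0.31 for Iglv3.

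Against this background the effect of CR was tested gene by gene. In BMAd-Pnpla2+/+, 2 of the 220 members tested passed the criteria, both higher and both heavy V genes, and 0 were lower. Over all 17671 genes tested the share past the criteria was 9.28% (7.33% higher and 1.94% lower), against 0.909% of the members. At an unadjusted p under 0.05 there were 20 members (13 higher and 7 lower) of 220, against 40.4% of all genes tested. The median log2 fold change was 0.19 over the members and 0.003 over all genes tested. The members' values were also less precise, with a median SE of 0.45 against 0.19 over all genes tested. The other 38 members had too few reads to be tested.

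Ighv12-3, the only gene of its family here and known from B-1 cells that bind phosphatidylcholine, had 62, 24, 17 and 30 reads in +/+ AL and 206, 167, 90 and 60 reads in +/+ CR. The lowest CR library was just under the highest AL library by reads, and just above it after scaling (3.17 and 2.99 CPM). The log2 fold change was 1.90 (SE 0.53, edgeR adjusted p = 0.0214), a 3.72-fold higher level with a 95% interval from 1.70 to 8.18. In -/- the gene had 33, 37 and 5 reads with AL and 19, 13 and 32 with CR (log2 fold change -0.29, SE 0.66, edgeR adjusted p = 0.814). The genotype by diet term was -2.19 (SE 0.85, edgeR adjusted p = 0.410), so the difference between the genotypes was not past the threshold. The call was lost without replicate 2, 3 or 4 of +/+ AL (edgeR adjusted p from 0.0513 to 0.0618). Ighv11-2, named after its values were seen because it is known from the same B-1 cells, had a log2 fold change of 0.02 (SE 0.56) in +/+.

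Ighv2-4 had 17, 20, 13 and 41 reads in +/+ AL and 89, 103, 38 and 50 in +/+ CR. The lowest CR library was below the highest AL library. The log2 fold change was 1.55 (SE 0.54, edgeR adjusted p = 0.0484), a 2.93-fold higher level with a 95% interval from 1.31 to 6.53. In -/- it had 35, 36 and 16 reads with AL and 30, 111 and 22 with CR (log2 fold change 0.87, SE 0.61, edgeR adjusted p = 0.378). In 9 of the 14 fits that left out 1 library its call was lost, with adjusted p up to 0.124. Ighv2-2, with which it shares stretches of sequence, had a log2 fold change of 0.24 (SE 0.39).

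In BMAd-Pnpla2-/-, 1 of the 220 members tested passed the criteria for CR against AL, against 3.53% of all genes tested (2.62% higher and 0.911% lower). At an unadjusted p under 0.05 there were 13 members (11 higher and 2 lower), against 29.1% of all genes tested. The median log2 fold change was 0.07 over the members and 0.05 over all genes tested. The member, Igkv4-92, was lower, and is named although its mean is below the 50 counts set for naming a V gene. It had 8, 10 and 46 reads with AL and 6, 2 and 3 with CR (log2 fold change -2.55, SE 0.73, edgeR adjusted p = 0.0386). Without the AL library of 46 reads, replicate 3, the log2 fold change was -1.36 (edgeR adjusted p = 0.224). The call was also lost without replicate 1, 2 or 3 of -/- CR (edgeR adjusted p from 0.0511 to 0.138). Igkv4-92 was not among the called members in 3 further fits, where fewer members were tested. These were without +/+ AL replicate 4 (219 members), with the deposited matrix (216) and with only the groups compared (211). In +/+ its log2 fold change was 0.04 (SE 0.64). The largest rise in -/- that did not pass was that of Igkv1-133, with 22, 136 and 53 reads with AL and 281, 967 and 45 with CR (log2 fold change 2.60, SE 1.02, edgeR adjusted p = 0.1101). Replicate 2 of -/- CR was 17.4 times the median of the 14 libraries in this gene.

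**Figure D4:**
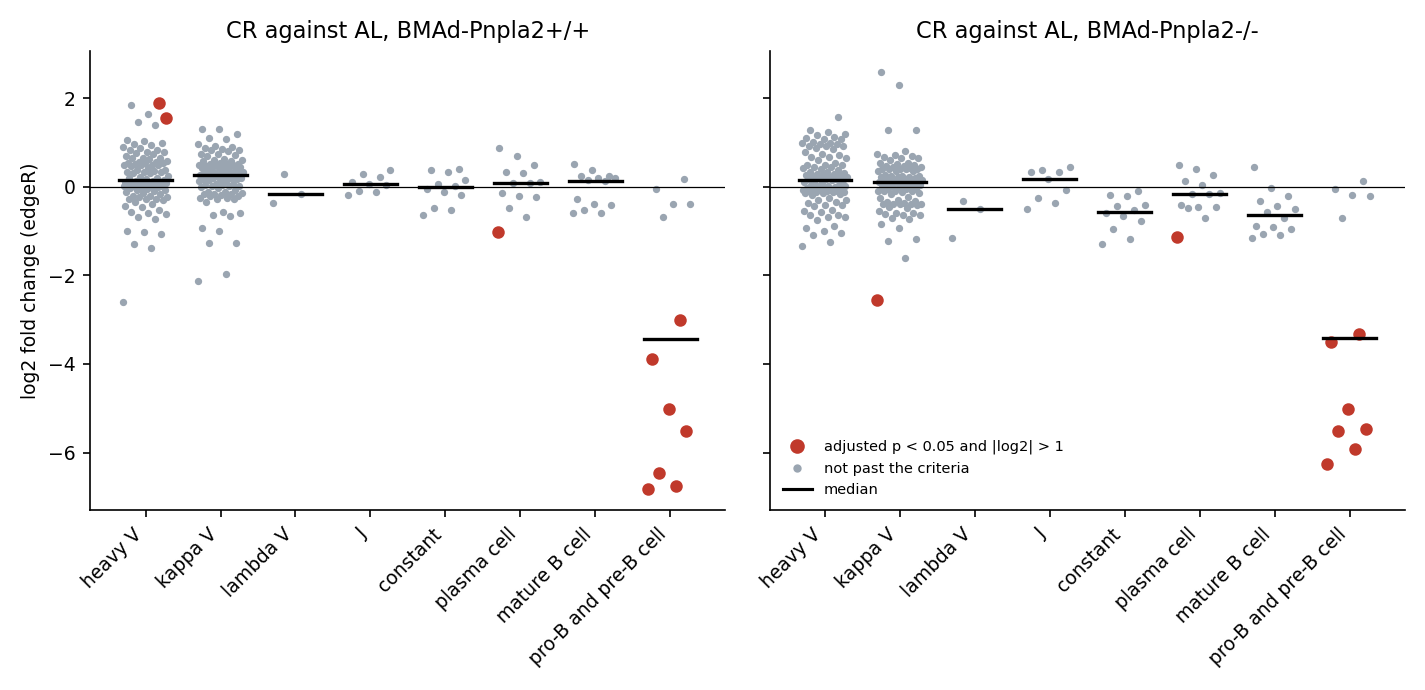
log2 fold change of CR against AL in BMAd-Pnpla2+/+ (left) and BMAd-Pnpla2-/- (right) for each tested member by segment and for 3 lists of B-lineage marker genes; larger coloured points passed adjusted p under 0.05 and a log2 fold change beyond 1, and bars are medians. The members spread around 0 with 2 and 1 past the criteria, while 7 of the 12 genes on the list for B cell precursors lie at -2.997 or lower in +/+ and at -3.32 or lower in -/-.

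The comparisons of genotype gave no member past the criteria. With AL, 0 of 220 passed, as did 0% of all genes tested, and 8 had an unadjusted p under 0.05, against 3.96% of all genes tested. DESeq2 also called 0 members. Under CR, 0 of 220 passed against 0.00566% of all genes tested, which is Pnpla2 itself, and 11 had an unadjusted p under 0.05, against 23.2% of all genes tested. DESeq2 called 0.583% of all genes tested and 3 members there: Ighv1-47, Ighv12-3 and Igkv8-21. By edgeR the nearest were Ighv1-47 (log2 fold change -2.57, adjusted p = 0.0546), Igkv1-132 (3.96, adjusted p = 0.0644) and Ighv12-3 (-2.49, adjusted p = 0.0659). Ighv1-47 stood at 1.90, 3.37, 6.63 and 4.59 CPM in +/+ CR and at 0.84, 0.74 and 0.49 CPM in -/- CR, so these groups did not overlap. Its levels with AL were 2.95, 1.95, 1.96 and 4.46 CPM in +/+ and 1.96, 1.05 and 1.27 CPM in -/-. For the genotype by diet term 0 of 220 passed, as did 0% of all genes tested, with 12 at an unadjusted p under 0.05 (10.4% of all genes tested) and 0 called by DESeq2. The median SE of that term over the members was 0.68.

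**Figure D5:**
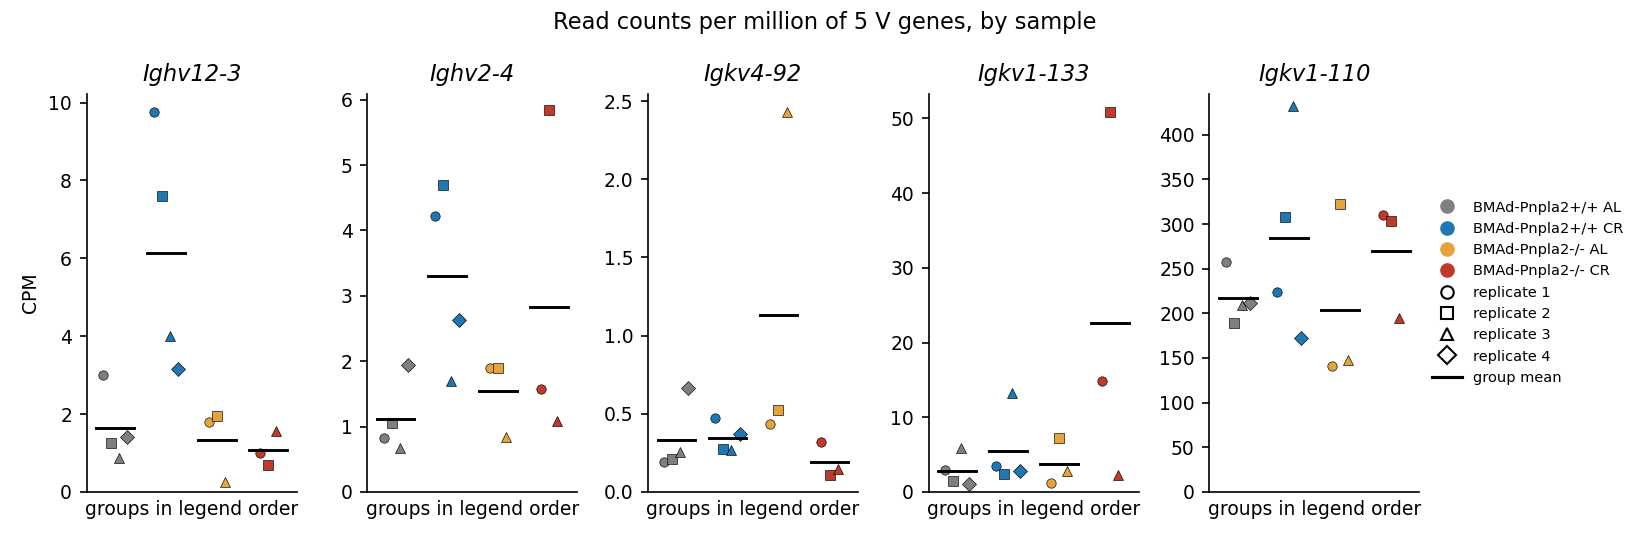
CPM by library for the 3 V genes past the criteria (Ighv12-3, Ighv2-4, Igkv4-92), for Igkv1-133 and for the most read kappa V gene, Igkv1-110; each axis starts at 0, points are libraries and bars group means. Ighv12-3 is highest in +/+ CR, Igkv4-92 is highest in 1 -/- AL library at 2.43 CPM, and Igkv1-133 reaches 50.9 CPM in 1 -/- CR library.

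The libraries differed from each other within a group more in these genes than in others. The biological coefficient of variation, the spread between libraries beyond counting noise, had a median of 0.44 for V genes, 0.42 for constant genes and 0.32 for J segments, against 0.18 for all genes tested. At 100 to 1000 mean counts it was 0.42 for 119 members and 0.15 for 6986 other genes. Among the 156 V genes that averaged 50 counts or more, 12 had a library above 4 times the median of the 14. These were spread over groups: Ighv1-36 in +/+ AL replicate 3 (8.10 times), Igkv1-88 in +/+ CR replicate 2 (6.54 times), Igkv3-10 in +/+ AL replicate 1 (5.44 times) and Igkv9-123 in -/- AL replicate 3 (4.63 times) are examples. Each library pools 2 mice, and a single B cell clone carries 1 V gene per chain. Whether single clones account for these libraries was not tested.

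The other genes of the B lineage behaved differently by stage. The lists were set with earlier results of these data known. On the list of 12 genes for B cell precursors (pro-B and pre-B), 7 fell with CR in +/+ and the same 7 in -/- (median log2 fold change over the 12 of -3.44 and -3.41), and 0 rose. Over all genes tested, 1.94% fell past the criteria in +/+ and 0.911% in -/-. Rag1, which cuts the V, D and J segments, stood at 72.1, 22.2, 30.5 and 87.5 CPM in +/+ AL and at 0.43, 0.91, 0.13 and 0.37 CPM in +/+ CR. It stood at 52.5, 41.8 and 41.0 CPM in -/- AL and at 0.90, 1.21 and 0.15 CPM in -/- CR. No library of CR reached those of AL. The log2 fold changes were -6.83 (SE 0.61) and -5.91 (SE 0.67), with edgeR adjusted p = 8.97e-05 and 0.00180. Igll1 and Vpreb1, which form the surrogate light chain of pre-B cells, fell by 6.45 and 5.51 on the log2 scale in +/+ and by 5.50 and 5.46 in -/-. Rag2, Vpreb2, Vpreb3 and Dntt also fell, and Il7r, Cd24a, Bst1, Erg and Lef1 did not pass the test.

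Of 14 mature B cell genes none passed in either genotype, against 9.28% (+/+) and 3.53% (-/-) of all genes tested. Their median log2 fold change was 0.14 in +/+ and -0.64 in -/-, against 0.003 and 0.05 over all genes tested. At an unadjusted edgeR p under 0.05 there were 0 of 14 in +/+ and 5 in -/-, against 40.4% and 29.1% of all genes tested. Cd79a was read at 286, 69.3, 214 and 369 CPM in +/+ AL and at 168, 188, 152 and 196 CPM in +/+ CR. It was read at 257, 281 and 206 CPM in -/- AL and at 71.0, 113 and 147 CPM in -/- CR, so the -/- groups did not overlap. Its log2 fold change in -/- was -1.17 (SE 0.43, edgeR adjusted p = 0.0912), and in +/+ it was -0.41 (SE 0.37, edgeR adjusted p = 0.416). The values for Ms4a1, a surface protein of B cells, were 0.13 in +/+ and -0.04 in -/-.

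Of 14 plasma cell genes, 1 fell in each genotype, Slamf7, a surface receptor (log2 fold change -1.01 and -1.13, edgeR adjusted p = 0.0124 and 0.0258), and 0 rose past both criteria. The shares of all genes tested that fell were 1.94% in +/+ and 0.911% in -/-. Jchain, which links the units of IgM and secreted IgA, had 832, 1057, 1801 and 1229 CPM in +/+ AL and 1245, 1009, 2974 and 951 CPM in +/+ CR. It had 902, 1250 and 1571 CPM in -/- AL and 1620, 1730 and 698 CPM in -/- CR. Like Igha, it was highest in replicate 3 of +/+ CR and lowest in replicate 3 of -/- CR. Its log2 fold changes with CR were 0.33 (SE 0.39) and 0.12 (SE 0.45). The values for Sdc1 were 0.69 and 0.49, for Xbp1 0.08 and -0.16, for Mzb1 -0.69 and -0.46 and for Tnfrsf17 0.08 and -0.15. Prdm1 had 0.88 in +/+ with edgeR adjusted p = 0.0135, short of the fold criterion, and 0.39 in -/-. Of 7 genes of class switching and hypermutation and 10 immunoglobulin receptor and transport genes, 0 passed both criteria by edgeR in either genotype. At an unadjusted p under 0.05 there were 4 of 7 in +/+ and 0 in -/- on the first list, and 4 and 3 of 10 on the second, against 40.4% (+/+) and 29.1% (-/-) of all genes tested.

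Other cell types moved with CR. All 8 adipocyte genes rose in +/+ and 6 of 8 in -/-, and the summed level of that list went from 685 to 1206 CPM (+/+ AL) to 1847 to 4050 CPM (+/+ CR), and from 461 to 859 to 1132 to 1800 CPM in -/-. T cell genes rose past both criteria for 4 of 10 in +/+ and 2 of 10 in -/-, and 1 of 10 neutrophil genes fell in +/+ and 0 in -/-. Of all genes tested, 7.33% rose and 1.94% fell in +/+, and 2.62% rose and 0.911% fell in -/-. At edgeR adjusted p under 0.05 alone there were 7 T cell and 7 neutrophil genes in +/+ (26.0% of all genes). In -/- there were 4 and 0 (11.6%). The median log2 fold change of the neutrophil list was -0.83 in +/+ and -0.44 in -/-. The summed level of the neutrophil list was 26473 to 34524 CPM in +/+ AL and 13015 to 24018 CPM in +/+ CR. In -/- it was 28844 to 29722 CPM with AL and 17687 to 28608 CPM with CR, so the diets did not overlap in either genotype. Of 6 osteoblast and stroma genes 3 rose in +/+ and 0 in -/-, and 0 of 6 erythroid genes passed in either. The part of these shifts in the members' levels, which are shares of each library, was not tested.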

How the data were processed

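Paired-end RNA-seq of marrow plugs was measured in 14 libraries, each pooled from 2 mice. Per the labels and methods, the authors checked reads with FastQC 0.11.9, aligned them to mm10 with STAR, which counts uniquely mapped read pairs per gene, and deposited raw counts per gene and library by strand setting, with a matrix of raw counts. The STAR version is not given in the sources used here. In the matrix, 11 libraries hold reverse-strand counts and the 3 BMAd-Pnpla2-/- CR libraries unstranded ones, so the unstranded counts of the 14 library files were used. Groups came from the labels. Gene models were GENCODE M21 (GRCm38).

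Of 55401 genes, 17671 passed edgeR's filter on low counts. Counts were scaled by TMM and tested with edgeR 4.0.16 (quasi-likelihood, robust, 4 groups in 1 fit, R 4.3.3), with Benjamini-Hochberg adjustment over all genes tested. A gene was called at adjusted p under 0.05 and a log2 fold change beyond 1 either way. The steps were tested on simulated data. Alternatives were other scalings and filters, DESeq2 1.42.0, the deposited matrix, a replicate block and leaving out each library. Summed shares have no test. Strain alleles that differ from the reference could lower counts of V genes and of lambda genes, which was not tested.

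The members and gene lists were chosen with earlier results of these data known. Named were the constant genes, the 5 heavy, 5 kappa and 3 lambda V genes with the highest mean CPM, called V genes that averaged 50 counts or more (the 3 largest and 3 smallest changes in each diet comparison), J segments with that average, the top V gene of each library, a set of B-lineage genes (1 of which is not reported here), and the 3 genes most like Igkc and Ighm. Other genes named (Ighv2-4 and Igkv4-92, which were called at a lower mean, further V and J segments, and genes of the lists) were chosen after their values were seen. The libraries' pooling of animals is all that is stated about replicates, so p-values measure the spread between these pools.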

Additional observations from a re-analysis of the deposited data

Results flagged for a closer look

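Groups of 4 libraries were checked for a library far from the other 3, by Dixon's ratio at its 95% critical value. Of 100 such groups (50 measures in BMAd-Pnpla2+/+ AL and CR) 11 had one. Chance alone marks about 1 in 20 where values are independent and normally distributed. The 50 measures come from the same libraries, so the flags are not independent and their number is no test of an excess. In +/+ CR there were 6, all replicate 3 and all above the rest. Igha reached 18220 CPM there (others 6762 to 8632), Jchain 2974 CPM (others 951.5 to 1245), Iglc2 91.8 CPM (others 40.5 to 44.6), Iglv3 51.5 CPM (others 11.4 to 17.6), Igkv10-96 338.9 CPM (others 118 to 133.6) and Ighj4 5.38 CPM (others 1.78 to 2.22).

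In +/+ AL there were 5, in 4 different libraries. Igha stood at 13320 CPM in replicate 3 (others 5333 to 6507) and Ighg1 at 1706 CPM in replicate 1 (others 430 to 507). Igkv4-92 stood at 0.664 CPM in replicate 4 (others 0.193 to 0.257). Igkj4 was low in replicate 2, at 2.90 CPM (others 4.83 to 5.10 CPM), and Prdm1 was low in replicate 1, at 10.5 CPM (others 11.2 to 11.3). The groups of 3 were too small for this check.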

How the results depend on the processing

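Counts of called members moved with the setting. With the deposited matrix 3 members were called for CR in -/- (9.45% of all genes tested), 4 for genotype under CR (6.03%) and 1, Iglc3, for the genotype by diet term (2.76%). For CR in +/+ it lost Ighv2-4 (edgeR adjusted p = 0.0502) and called Ighv3-5 lower, giving 1 higher and 1 lower (9.13% of all genes tested). DESeq2 called 7 for CR in +/+ (4 higher, 3 lower, with 1773 of 17671 genes in all), 6 for CR in -/- (4.51%) and 3 for genotype under CR (0.583%). For CR in -/-, a mean of at least 10 counts left 0 (3.57% of all genes tested) and fitting only the groups compared gave 3 (4.02%). With V genes of at least 50 counts alone, 15 heavy V genes held 50% of reads in -/- AL. Scaling by total counts moved the median of all genes for CR in -/- to 0.12. The cause was not tested.

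Replicate numbers did not visibly pair the samples. The correlation of deviations between same-numbered libraries of different groups ran from -0.38 to 0.33 (median 0.02, 19 pairs). Between libraries of different number it ran from -0.44 to 0.36 (median -0.009, 54 pairs). Other ways in which libraries could be paired were not tested. With the replicate block 2 members were called for CR in -/-, against 3.52% of all genes tested. These were Ighv3-8 and Iglc3 (-1.10, edgeR adjusted p = 0.0428), and Igkv4-92 was lost (edgeR adjusted p = 0.0523). In that comparison 11 of 12 constant genes lay below 0. Ighe (-0.029) and Ighg2c (-0.13) in +/+ and Igha (0.013) in -/- changed sign with the block. Ighe also did with the deposited matrix (-0.069) and with reverse-strand counts of 11 libraries (-0.041).

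Leaving out 1 library at a time gave 1 to 6 called members for CR in +/+. The 6 came without +/+ CR replicate 4, where 12.9% of all genes tested were called. There were 4 without +/+ AL replicate 1 (9.99% of all genes) or -/- CR replicate 3 (8.99%). Only 1 was called without +/+ AL replicate 2 (7.3%) or 4 (7.86%). For CR in -/- there were 0 to 4, with 4 without +/+ CR replicate 3 (3.71%). For genotype under CR there were 0 to 4, with 4 without +/+ CR replicate 4 (2.36%). In +/+ the log2 fold changes ran from -0.020 to 0.74 (Igha), -0.43 to 0.25 (Ighe), -1.08 to 0.10 (Ighg1), -0.66 to 0.30 (Ighg2b), -0.39 to 0.45 (Ighg2c), -1.31 to 0.094 (Ighg3), -0.061 to 0.31 (Igkc), -0.37 to 0.54 (Iglc1), -0.50 to 0.015 (Iglc2) and -0.19 to 0.15 (Igkv4-92). In -/- they ran from -0.35 to 0.24 (Igha), -0.55 to 0.023 (Ighe), -0.82 to 0.041 (Ighv12-3) and -0.22 to 1.26 (Ighv2-4). None of these genes was called in that comparison.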
